A study of Mus musculus with 3 samples.

Results

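The 10 Sox genes described here, Sox2, Sox4, Sox5, Sox6, Sox9, Sox10, Sox11, Sox12, Sox13 and Sox17, were chosen by name, and are 10 of the 18193 genes that the array measures under a single symbol. Together they are read by 38 probe sets, each a group of short oligonucleotides directed at one transcript region. The mice were Tgn1-2G transgenics, males and females aged 5 to 8 days after birth, and the tissue was the olfactory epithelium. Fluorescence sorting gave strongly GFP positive (GFP+++, 1000000 cells), weakly GFP positive (GFP+, 1300000 cells) and GFP negative cells (GFP-, 6800000 cells). The transgene, carried by all 3 groups, is known from other work to drive GFP from control elements of Neurog1, a proneural factor. Every fraction also carries the label number 32, with nothing on what it counts, or whether the fractions share animals. The submitters describe GFP+++ as rich in immature neurons, GFP+ as slightly enriched in mature ones, and GFP- as holding all cell types with immature neurons depleted. Each fraction was hybridised to 1 array, so no difference below has a replicate check, a test or a p-value.

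SOX proteins are transcription factors that bind the minor groove of DNA through an HMG box and bend it, usually beside a partner protein. They fall into groups by the sequence of that box. In the nervous system Sox2, of group B, is known for keeping progenitors undifferentiated, whereas Sox4, Sox11 and Sox12, of group C, act in neurons that have just left the cell cycle. Sox9 and Sox10, of group E, serve cartilage, glands and glia, and Sox5, Sox6 and Sox13, of group D, lack a recognised activation domain of their own and act through partners. In the olfactory mucosa Sox2 is known from sustentacular and basal cells, Sox9 from Bowman glands and Sox10 from ensheathing glia.

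The promoters of Sox2 and of the 3 group C genes are shown. Among these genes Sox4 and Sox11 parted between the fractions, while Sox2 and Sox4 had the same order. Of the 10 genes, 7 have an entry in the RefSeq promoter table of the mouse assembly GRCm38.p6, and in 4 of them the start lies at the end of the annotated gene. These are given as the 250 bases before that start, 5′ to 3′ on the strand of the gene: Sox2 at chr3:34649745-34649994 (plus strand), Sox4 at chr13:28953700-28953949 (minus strand), Sox11 at chr12:27342719-27342968 (minus strand) and Sox12 at chr2:152398047-152398296 (minus strand). Capitals mark matches, on either strand, to the CCAAT box (CCAAT), the E-box (CANNTG), the octamer (ATGCAAAT), the TATA box (TATAAA) and a pair of Sox site letters (ACAAAG and ACAAT).
Sox2: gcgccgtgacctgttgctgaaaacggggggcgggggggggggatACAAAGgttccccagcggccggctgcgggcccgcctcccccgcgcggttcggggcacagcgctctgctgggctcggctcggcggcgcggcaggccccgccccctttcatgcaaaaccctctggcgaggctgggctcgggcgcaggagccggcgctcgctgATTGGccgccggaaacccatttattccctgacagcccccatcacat
Sox4: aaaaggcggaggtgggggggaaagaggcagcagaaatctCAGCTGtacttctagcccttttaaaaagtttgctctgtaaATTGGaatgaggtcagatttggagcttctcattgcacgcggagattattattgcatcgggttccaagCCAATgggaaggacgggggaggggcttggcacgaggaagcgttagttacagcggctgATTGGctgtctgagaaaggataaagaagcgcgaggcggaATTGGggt
Sox11: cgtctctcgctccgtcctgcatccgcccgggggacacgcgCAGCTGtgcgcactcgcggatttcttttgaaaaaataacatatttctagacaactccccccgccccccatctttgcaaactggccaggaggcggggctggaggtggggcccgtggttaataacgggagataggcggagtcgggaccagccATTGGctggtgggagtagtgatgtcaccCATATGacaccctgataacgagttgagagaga
Sox12: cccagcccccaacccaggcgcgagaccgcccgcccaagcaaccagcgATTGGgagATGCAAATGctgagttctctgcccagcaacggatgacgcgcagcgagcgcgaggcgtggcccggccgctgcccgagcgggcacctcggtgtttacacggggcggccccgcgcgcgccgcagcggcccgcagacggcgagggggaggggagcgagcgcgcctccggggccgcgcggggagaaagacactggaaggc

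All 4 windows hold the CCAAT letters, which stand in 33.8% of 32817 promoter windows of that length. Sox4 holds 4 of them, at 171, 104, 47 and 8 bases before the start, and the other 3 genes hold 1 each, nearest in Sox2 at 46 and Sox11 at 60. Sox4 and Sox11 each carry CAGCTG at almost the same distance, 211 and 210 bases before the start, and Sox11 has a second E-box, CATATG, at 32. E-box letters are common, in 66.2% of windows. Sox12 is the only 1 of the 4 with the octamer, at 195, where it overlaps an E-box match; it stands in 1.6% of windows. Sox2 alone has ACAAAG, at 206, against 16.5% of windows. ACAAT (27.7%) and TATAAA (12.4%) had no match in these 4. The share of G and C was 72.0% in Sox2, 74.4% in Sox12, 58.0% in Sox11 and 50.8% in Sox4, against a median of 52.4%. These matches describe the letters and say nothing of binding.

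Signals below are linear array intensities in arbitrary units, which can be compared between fractions for 1 probe set but not between probe sets. A signal under the floor, the pooled median of 104, was treated as unmeasured, and a fold against such a signal is a lower bound. The direction of a bound is set by the floor, in the marker lists too. The brightest probe set by mean signal stands for a gene unless others are named. The SD of log2 folds between probe sets of the same gene, pooled over genes, was 0.30 for GFP+++ over GFP-, 0.24 for GFP+ over GFP- and 0.30 for GFP+++ over GFP+. It is the only error available, and it covers neither animals nor sorts. Immature neuron markers were higher in GFP+++ than in GFP- in 10 of 10 genes, with a median log2 fold of 0.66 but 2 past 2-fold (6 with median scaling), and their summed signal in GFP- was 53346 against 75466 in GFP+++; Tubb3 and Dcx are among them. Scaling each array by its median instead raised log2 folds of GFP+++ over GFP- by 0.42, of GFP+ over GFP- by 0.14 and of GFP+++ over GFP+ by 0.28. Directions that turn under it are stated for the measured folds of the 10 Sox genes, but not for every list member or summed signal.

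Of the 10 genes, 8 passed the floor on at least 1 array. With GFP- as the base, 1 of these 8 lay 2-fold or more higher in GFP+++ (Sox13) and 3 lay 2-fold or more lower (Sox2, Sox9 and Sox10). Of all 12235 genes compared, 1.92% were higher and 12.4% lower by that measure. With median scaling these shares were 9.27% and 8.58%, and 2 Sox genes, Sox9 and Sox10, were lower. By the median over all probe sets of a gene the 2 lower genes were Sox2 (-1.37) and Sox4 (-1.77), while Sox9 (-0.44) and Sox10 (-0.75) lost the call. By that choice 10.0% of all genes were lower. The median log2 fold of the 8 Sox genes was -0.93, against 0.01 for all genes. Sox9, Sox10 and Sox17 passed only through GFP+ and GFP-, so that they had to be lower in GFP+++, and 5 genes were measured on every array. Between GFP+ and GFP-, 0 of 8 passed 2-fold in either direction, where the shares of all genes were 0.607% higher and 0.804% lower (1.09% and 0.384% with median scaling), and the median was -0.50. Between GFP+++ and GFP+, Sox13 alone passed 2-fold upward (all genes 0.985%) and 0 downward (all genes 9.34%), with a median of -0.52. With median scaling the shares of all genes were 3.47% and 6.4%. The 3 comparisons share arrays and are not independent. In bulk fractions, fewer cells of a type and less RNA per cell cannot be told apart.

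**Figure D1:**
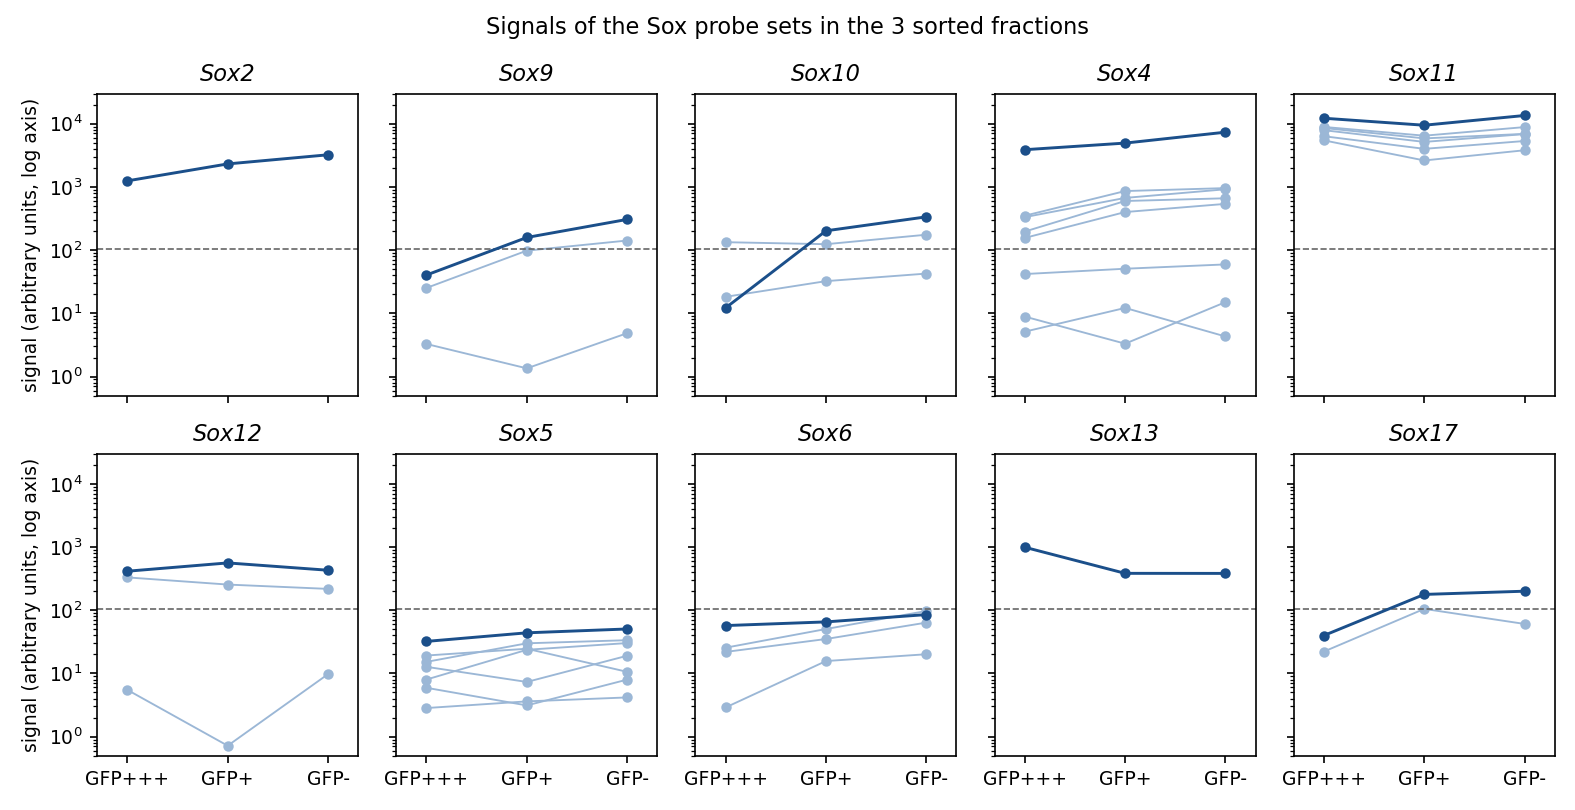
Signal of every probe set of the 10 Sox genes (log axis, arbitrary units) in the GFP+++, GFP+ and GFP- arrays, 1 array each. The dark line is the brightest probe set of a gene, pale lines are the others and the dashed line is the floor of 104; Sox2, Sox4, Sox9 and Sox10 are highest in GFP-, Sox13 is at 990.5 in GFP+++ and 382 in GFP-, and Sox5 and Sox6 stay under the floor.

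Sox2, the progenitor factor, gave 1245 in the GFP+++ array, 2308 in GFP+ and 3218 in GFP- on its only probe set, 1416967_at. The order was GFP- over GFP+ over GFP+++, and both steps exceeded 2 times the probe set SD, the first barely (0.4793 against 0.4787 on the log2 scale). Sox2 was 2.59-fold lower in GFP+++ than in GFP- (log2 -1.37) and 1.39-fold lower in GFP+ (log2 -0.48). With median scaling these values were -0.95, which is under 2-fold, and -0.34, which is within 2 times the SD. Among 10530 genes above the floor on both arrays, 5.37% had a lower fold of GFP+++ over GFP- than Sox2.

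Genes that work with Sox2 or are known to respond to it differed between fractions to unlike degrees. Of 9 measured partners and targets, 5 lay 2-fold or more below GFP- in GFP+++ and 0 above it by as much, and the median log2 fold was -1.38 (4 bounds). Otx2, a homeobox factor of head development, had signals of 1259, 2409 and 3273 in GFP+++, GFP+ and GFP-, steps of almost the same size as those of Sox2. Pax6, a partner of Sox2 in lens and neural progenitors, was 3.83-fold lower (299 against 1144). Chd7, a chromatin remodeller that binds Sox2 in neural stem cells, differed little (1105 against 1114), and Notch1, the receptor that holds progenitors back, lay at 437 against 706. With median scaling 4 of the 9 passed 2-fold downward, and Chd7 turned above 0.

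Most markers of the cells in which Sox2 is known were also lower in GFP+++. All 8 sustentacular markers were below 0 in GFP+++ over GFP- (median -1.38), 5 of them past 2-fold, and their signals summed to 37275, 47105 and 63874 in GFP+++, GFP+ and GFP-. No listed marker had a signal of exactly 0 in any fraction, but signals under the floor count as unmeasured. The absence of such signals therefore does not show which cells were present. With median scaling 7 of the 8 lay below 0. Of 8 progenitor markers 6 were below 0 (5 with median scaling) and 4 past 2-fold (median -0.94), with summed signals of 14095, 16807 and 21636. Top2a and Mki67, both of dividing cells, were 3.47-fold and 3.25-fold lower, while Neurog1 (1492 against 1202) and Ezh2 (3065 against 3062) were not. The part of these cells in the Sox2 difference was not tested.

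Sox9, the gland and cartilage factor, on probe set 1424950_at gave 40.4, 158 and 306 for GFP+++, GFP+ and GFP-, the first under the floor. The GFP+++ level was thus lower than GFP- by at least 2.93-fold. GFP+ was 1.93-fold lower than GFP- (log2 -0.95), and 1.05% of 11509 genes above the floor on both arrays had a lower fold. A second probe set read 25.2, 98.1 and 142, above the floor in GFP- alone, and the last stayed between 1.35 and 4.86.

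Both tissues of Sox9 had markers on the array. All 8 Bowman gland markers lay 2-fold or more below GFP- in GFP+++ (7 with median scaling or quantile normalization), with a median log2 fold of -2.68 (2 bounds) and summed signals of 8457, 29722 and 51816. Aqp3, a water channel, lay at 1351 against 3640, and Bpifa1, a secreted airway protein, at 5544 against 23339. Of 10 cartilage markers 6 passed the floor, with summed signals over the 10 of 1884, 2005 and 3316. Of the 6, 2 passed 2-fold downward (median -0.76, with 4 bounds), among them Col9a1, 9.94-fold lower at 171 against 1697, whereas Col9a2 was higher in GFP+++ (1453 against 825). Col2a1, the main cartilage collagen and a textbook target of Sox9, was under the floor in GFP+++ and at 117 and 167 in GFP+ and GFP-. The part of gland and cartilage cells in the Sox9 difference was not tested.

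Sox10, the glial factor, had 2 measured probe sets, which differed in the size of the fold and, for GFP+++ over GFP+, in its direction. The brightest, 1451689_a_at, read 12.2, 202 and 336 in GFP+++, GFP+ and GFP-. On it GFP+++ was lower than GFP- by at least 3.22-fold and GFP+ by 1.66-fold (log2 -0.73). A second, 1424985_a_at, directed at another cDNA, read 133, 124 and 175, a 1.31-fold difference (log2 -0.39) that turned to 0.02 with median scaling. The third was under the floor on every array, at 18.2, 32.3 and 42.5. Against GFP+, GFP+++ was lower by at least 1.93-fold on the brightest but slightly higher on the second (log2 0.10, and 0.38 with median scaling). The size of the Sox10 difference between GFP+++ and GFP-, and its direction between GFP+++ and GFP+, therefore depend on the probe set. GFP+ lay below GFP- on both measured ones.

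The summed glial markers had the order of the brightest Sox10 probe set, GFP- over GFP+ over GFP+++. That order is not particular to glia. The sustentacular, progenitor, gland, cartilage, endothelial, horizontal basal, fibroblast and immune sums had it too. These sums are without median scaling. That scaling raises GFP+++ over GFP+ by 0.28 on the log2 scale, enough to put GFP+++ above GFP+ in the progenitor and cartilage sums. Of 9 measured, 6 passed 2-fold downward in GFP+++ over GFP- (median log2 fold -1.79, with 4 bounds), and the summed signals of the 11 on the array were 3871, 8809 and 12718. Fabp7, a fatty acid binding protein of ensheathing glia, lay at 1258 against 5534, and Erbb3, a neuregulin receptor known as a target of Sox10, was 3.47-fold lower (437 against 1518). Apod, a lipocalin, was 10.2-fold lower. Mbp, a myelin protein gene also listed as glial, was higher in GFP+++ (1459 against 827). The part of glial cells in the Sox10 values was not tested.

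**Figure D2:**
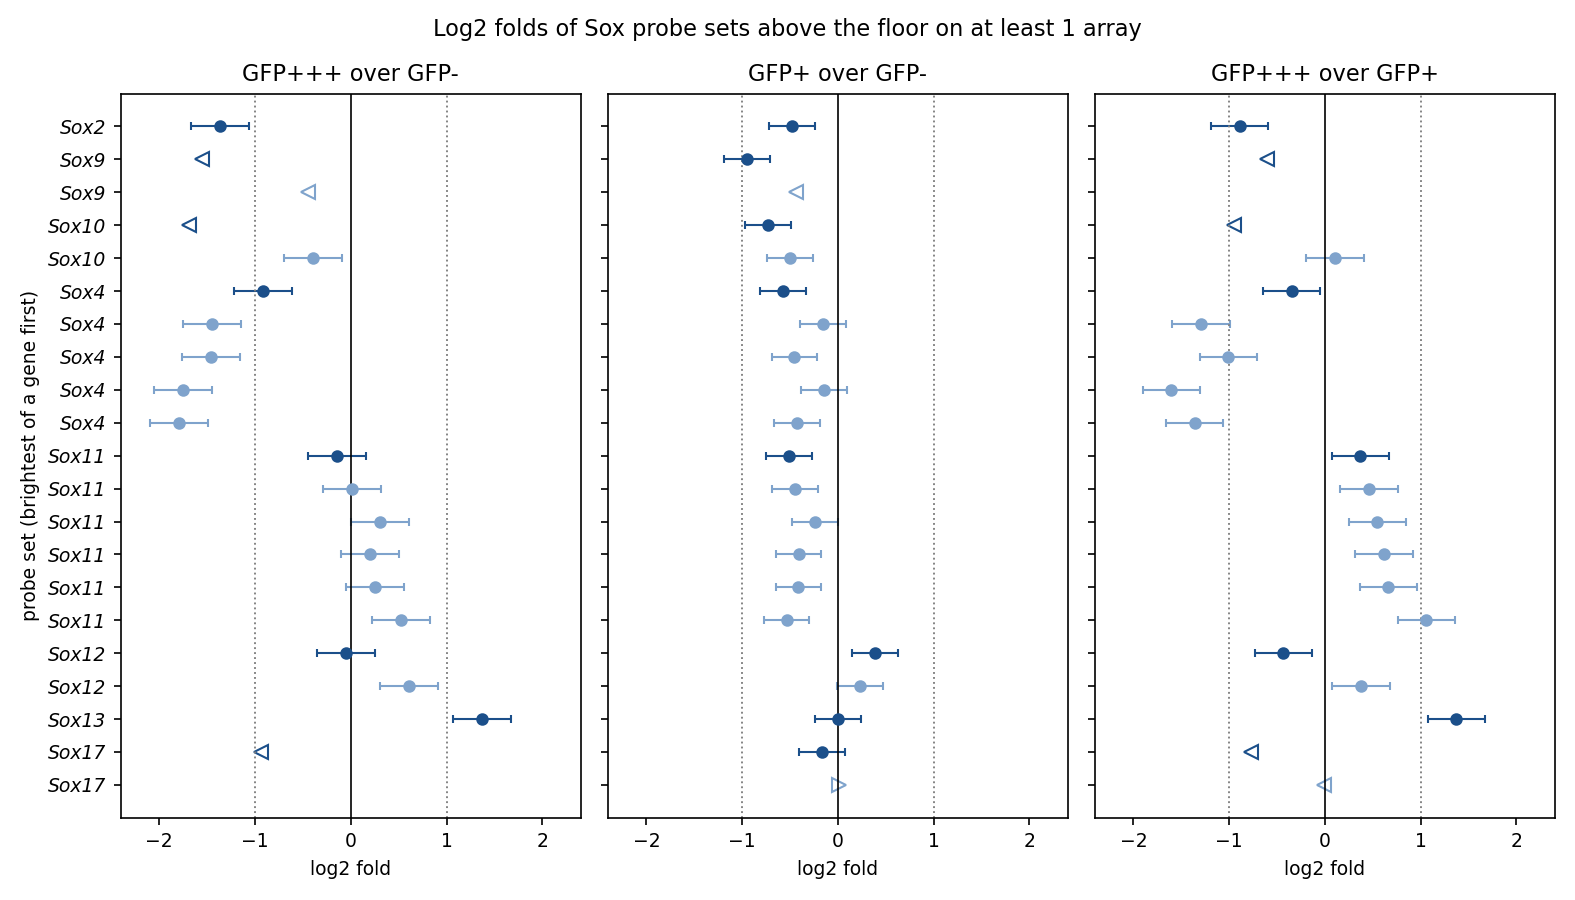
Log2 folds of the 21 Sox probe sets above the floor on at least 1 array, for the 3 comparisons; points with bars are values with the pooled probe set SD, open triangles are bounds and point the way the true value lies, dark marks are the brightest probe set of a gene and dotted lines mark 2-fold. The 5 Sox4 sets lie between -1.79 and -0.92 in GFP+++ over GFP-, while the 6 Sox11 sets lie between -0.14 and 0.52 (all above 0 with median scaling).

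Among the group C genes, Sox4 and Sox11 parted. Sox4 was lower in GFP+++ than in both other fractions on each of 5 measured probe sets, while Sox11, its close relative, was higher in GFP+++ than in GFP+ on each of 6. In neurons of other regions the SoxC proteins are known to act in overlapping ways on genes such as Tubb3 and Dcx.

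Sox4 gave 3873, 4929 and 7332 for GFP+++, GFP+ and GFP- on the brightest probe set, 1433575_at, a 1.89-fold difference between the first and the last (log2 -0.92). The step from GFP- to GFP+ (0.57) exceeded 2 times the probe set SD and the step from GFP+ to GFP+++ (0.35) did not. The first step came within it under median scaling (log2 -0.43) and after quantile normalization (-0.45). The 4 other measured probe sets, all directed at 1 other accession, lay 2-fold or more below GFP- in GFP+++. The brightest of these read 349.9, 859 and 956 and the dimmest 156, 399.8 and 538. Over the 5 probe sets the mean log2 fold of GFP+++ over GFP- was -1.47 ± 0.35 (SD, n = 5 probe sets), with a range from -1.79 to -0.92. The corresponding means were -0.35 ± 0.19 for GFP+ over GFP- and -1.12 ± 0.48 for GFP+++ over GFP+. All 5 lay below 0 in each comparison, also with median scaling and with quantile normalization, although 1 then came as near to 0 as -0.0042 in GFP+ over GFP-. The remaining 3 probe sets named Sox4 stayed under the floor on all arrays, the highest at 59.4.

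The brightest Sox11 probe set, 1431225_at, read 12185 for GFP+++, 9446 for GFP+ and 13469 for GFP-. That order, GFP- over GFP+++ over GFP+, had no step above 2 times the probe set SD (0.14 and 0.37). The other 5 probe sets put GFP+++ first. On 1 of these the margin over GFP- was 8879 against 8827, and on the dimmest, 1436790_a_at, it was 5444 against 3796. The mean log2 fold of GFP+++ over GFP- was 0.19 ± 0.23 (SD, n = 6 probe sets), with 5 of 6 above 0, and with median scaling 0.61 with 6 of 6 above 0. GFP+++ over GFP+ averaged 0.62 ± 0.24 and was above 0 on 6 of 6, and GFP+ over GFP- averaged -0.43 ± 0.11 and was below 0 on 6 of 6. These signs held under the 3 scalings, but the sizes did not. After quantile normalization the brightest set went from -0.51 to -0.12 in GFP+ over GFP-. In GFP+++ over GFP+ it went from 0.37 to 0.15. The 6 sets rest on 4 accessions, so they are not 6 independent readings.

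On the brightest probe sets the difference in log2 fold, Sox4 minus Sox11, was -0.78 for GFP+++ over GFP-, a quantity that a scaling factor per array cannot alter. It was -0.72 for GFP+++ over GFP+. For GFP+ over GFP- it was -0.06, and 0.04 by the median over probe sets. The ranges over probe sets did not overlap for GFP+++ over GFP- (-1.79 to -0.92 against -0.14 to 0.52) or for GFP+++ over GFP+ (-1.61 to -0.35 against 0.37 to 1.06), but did for GFP+ over GFP-. Probe sets of a gene share arrays and in part accessions, so they are not replicates. How many other gene pairs lack overlap was not counted. A ratio within an array shows that the genes changed unequally, not that either stayed the same.

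Sox12, the remaining group C gene, on probe set 1455562_at read 414 for GFP+++, 559.6 for GFP+ and 429 for GFP-. No step in that order exceeded 2 times the probe set SD. A second probe set read 330, 254 and 217 and placed GFP+++ first, 1.52-fold above GFP-, so only GFP+ over GFP- had the same sign on both (log2 0.38 and 0.23). The log2 fold of GFP+++ over GFP- on the brightest set was -0.05, but 0.36 with median scaling and 0.09 after quantile normalization. The last set lay under the floor, at most at 9.75.

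Of the SoxC targets and partners, 4 passed the floor and 0 went past 2-fold in GFP+++ over GFP- (median log2 fold 0.23). Tubb3, the neuronal tubulin, was at 8627 in GFP+++, 4681 in GFP+ and 5463 in GFP-, the same order as 5 of the 6 Sox11 probe sets. Dcx, the microtubule protein of migrating neurons, was at 6886, 5845 and 5532, and Map2, of dendrites, at 1960, 1531 and 1784. Tead2, a transcription factor known to be a SoxC target in embryonic mesenchyme, went the other way, with 214, 225 and 352. Tubb3 passed 2-fold with median scaling (1 of 4). In GFP+++ over GFP+ all 4, Tead2 included, lay above 0 with that scaling. Summed signals of the 10 immature neuron markers were 75466, 47946 and 53346. In GFP+ over GFP- 6 of the 10 were below 0 (median -0.11), but 4 with median scaling (median 0.03), where all 6 Sox11 probe sets were below 0. The part of immature neurons in the Sox11 and Sox4 values was not tested.

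Sox13, a group D member known for binding TCF factors of the Wnt pathway, was the 1 measured Sox gene past 2-fold upward in GFP+++ on its brightest probe set. Its only probe set, 1450191_a_at, read 990.5 for GFP+++, 383 for GFP+ and 382 for GFP-. GFP+++ thus stood apart from 2 nearly equal fractions, 2.59-fold above both (log2 1.37 for either). That gap stayed above 2-fold with median scaling (log2 1.79 over GFP- and 1.65 over GFP+) and after quantile normalization (1.46 and 1.44). The other alternatives could not change this fold, because Sox13 has 1 probe set and it lies above every floor tried. GFP+ over GFP- was 0.0032 on the log2 scale (0.14 with median scaling). Its fold ranked 15th highest among 10527 genes above the floor in GFP+++ and GFP+, and 52nd among 10530 in GFP+++ and GFP-. With 1 probe set there is no second reading of Sox13.

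Wnt pathway genes were listed beside it. Of 5 measured, 2 passed 2-fold downward in GFP+++ over GFP- and 0 upward (median log2 fold -0.57, with 1 bound). Tcf7l1, a mostly repressive TCF factor, lay at 182, 566 and 741 and Tcf7l2 at 149, 416 and 746, 4.06-fold and 4.99-fold lower in GFP+++. The bright Ctnnb1, β-catenin itself, lay at 12700, 10519 and 14743, and Axin2, a feedback target of the pathway, at 237, 252 and 280. For these last 2 the log2 folds of GFP+++ over GFP- (-0.22 and -0.24) turned above 0 with median scaling.

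Sox5 and Sox6, the other group D members, were not measurable. The 7 Sox5 probe sets reached at most 50.5 and the 4 Sox6 probe sets at most 97.2, both in GFP- and under the floor of 104. No fold is given for them, and a level under the floor does not show that a gene is silent.

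Sox17, an endoderm and endothelial factor, read 39.8, 178 and 199.8 for GFP+++, GFP+ and GFP-, on probe set 1429177_x_at, whose suffix is given where probes may cross-hybridise. GFP+++ was lower than GFP- by at least 1.91-fold, and GFP+ and GFP- differed by less than the probe set SD (log2 -0.17). The second probe set read 22.1, 105 and 60.6, just past the floor in GFP+ alone. Of 10 endothelial markers 8 passed the floor, and 2 passed 2-fold downward in GFP+++ over GFP-. The median log2 fold was -0.63, but 4 of the 8 were under the floor in GFP+++ and could only come out lower there. Cldn5, a tight junction gene of vessels, was 5.88-fold lower and Esam, an endothelial adhesion molecule, 3.50-fold lower. Summed signals of the 10 endothelial markers were 697, 1709 and 2279, and their part in the Sox17 values was not tested.

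**Figure D3:**
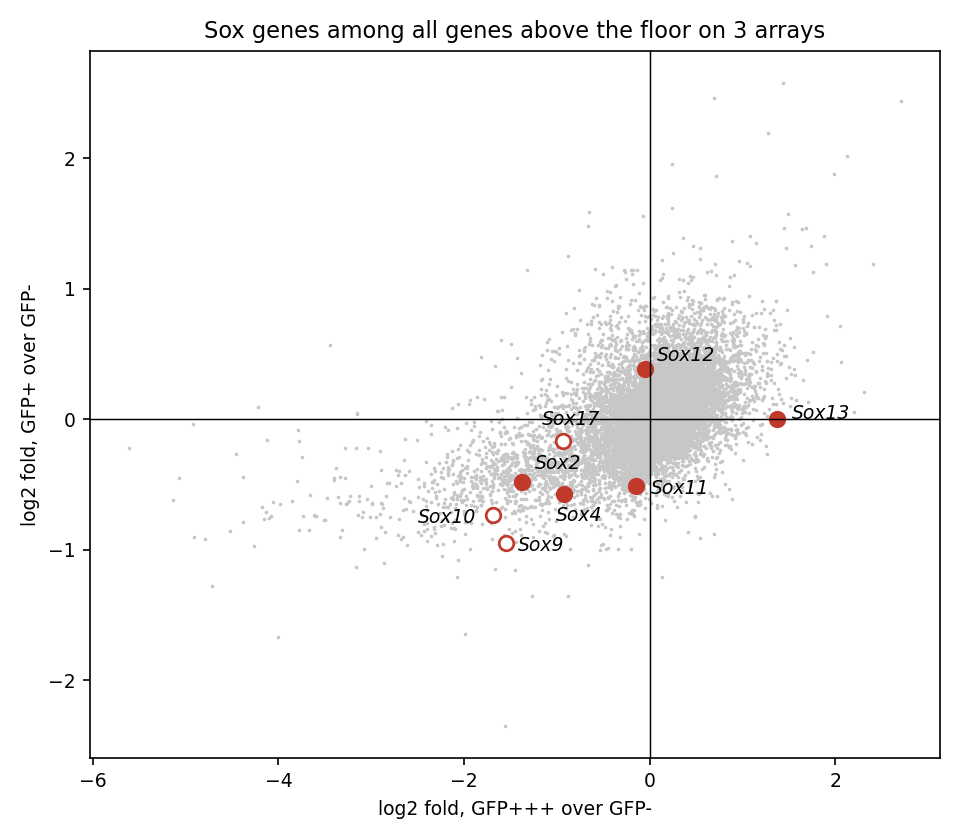
Log2 fold of GFP+++ over GFP- (x axis) and of GFP+ over GFP- (y axis) for all genes above the floor on the 3 arrays (grey) and for 8 Sox genes (red; open where GFP+++ lay under the floor, so that the x value is a bound). Both axes share the GFP- array; Sox13 stands at 1.37 on the x axis and 0.0032 on the y axis, away from Sox2, Sox4, Sox9 and Sox10 at the lower left.

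Of the 9 further Sox genes on the array, 2 passed the floor (Sox21 and Sox18). Sox21, a group B repressor known from chick to oppose Sox2 and its relatives in neural progenitors, read 321.5 for GFP+++, 598.5 for GFP+ and 592 for GFP-, and on a second probe set 224, 486 and 489. Both sets placed GFP+++ lowest, 1.84-fold and 2.18-fold below GFP-, and showed nearly no step between GFP+ and GFP-, where Sox2 had one of 0.48 on the log2 scale. Sox18, an endothelial relative of Sox17, passed the floor in GFP- alone (122). The noncoding transcripts Sox2ot and Sox6os, which are not counted as Sox genes, reached at most 42.8 and 27.1.

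The genes with the most similar pattern were found by Euclidean distance between log2 signals centred on the mean of the 3 arrays, for the 5 Sox genes above the floor on all of them. With 3 arrays such a likeness is loose. Within a distance of 0.30, the probe set SD, lay 4.46% of 10047 genes for Sox2, 5.31% for Sox4, 13.5% for Sox11 and 19.3% for Sox12, but 0.428% (43 genes) for Sox13. The nearest to Sox13 was Dlx6os1 (1050, 407 and 403, distance 0.0084), followed by Zfp341 (0.0442) and Fam189a1 (0.0877). For Sox2 the nearest were Txnip, Ghr and Rras, for Sox4 Prkab1, Amotl1 and Uap1l1, for Sox11 Cyb5a, Oaz1 and Hmgn1, and for Sox12 Slc25a15, Entpd7 and Coq8b, all within a distance of 0.019.

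**Figure D4:**
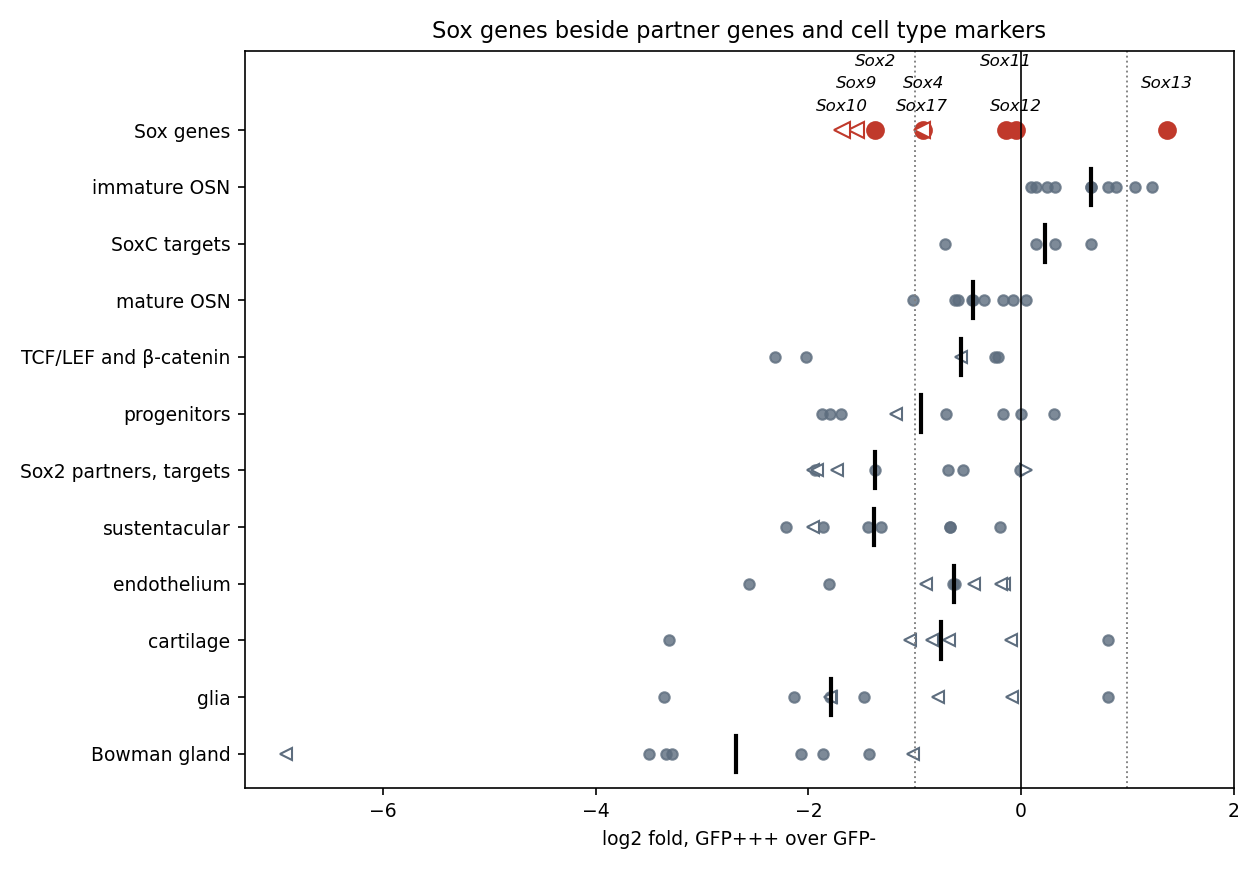
Log2 fold of GFP+++ over GFP- for 8 Sox genes (red) and for measured members of 11 gene lists (grey), with black bars at list medians, open triangles for bounds and dotted lines at 2-fold. Immature neuron markers lie above 0 with a median of 0.66, and Sox2, Sox9 and Sox10 (the last 2 as bounds) lie at or past -1.37. The sustentacular (-1.38), glial (-1.79) and gland (-2.68) medians lie on that side, and so do all others plotted except the immature neuron and SoxC medians. The fibroblast (-4.08), immune (-3.49) and horizontal basal (-1.82) lists, also on that side, are not plotted.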

How the data were processed

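The authors deposited a linear signal intensity for each probe set of an Affymetrix array, from total RNA labelled as biotin cRNA. The intensities were made with MAS5, per the submitters' processing notes, which name no version or settings. Per the deposited values, the 2% trimmed mean was 500.0 on each of the 3 arrays, which held median signals of 88.2 (GFP+++), 107 (GFP+) and 118 (GFP-). Detection calls were not used here. Of 45101 probe sets, 34958 had 1 gene symbol, 932 several and 9211 none; 34754 matched RefSeq by Entrez identifier, which changed 0 symbols. Each array was scaled to the same trimmed mean, signals under the pooled median of 104 were raised to it, and log2 folds were taken with Python 3.11.15, numpy 2.4.6 and pandas 2.3.3. A gene was counted from a 2-fold difference, and a gene had to pass the floor on 1 array of the comparison. No test was possible with 1 array per group, and that number limits the precision. The folds and the probe set SD were checked on simulated data. The known folds were put only into genes well above the floor, so bounds such as those of Sox9, Sox10 and Sox17 were not checked. Named are every Sox gene, up to 4 of the brightest members of a list, and the 3 genes nearest in pattern; other list members were named after their values were seen, some for their known role. The members and the 15 gene lists, of 133 gene names, were chosen with earlier results of these data known. Alternatives changed the scaling, the floor, the probe set choice or the probe sets admitted.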

Additional observations from a re-analysis of the deposited data

How the results depend on the processing

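No paired analysis was possible because each group has 1 array, and for the same reason no array could be left out. Under the 6 alternatives, 107 folds of single Sox genes moved by less than the probe set SD and 30 by more. Many of the 107 could not move, so the count does not measure stability. The other floors could not alter Sox2, Sox4, Sox11, Sox12 or Sox13. The median over probe sets could not alter Sox2 or Sox13, and leaving out _x_at and _s_at sets could alter Sox17 alone. A sign turned in 9 folds. Sox11 and Sox12 turned in GFP+++ over GFP- under both other scalings and by the median over probe sets. Sox12 turned in GFP+++ over GFP+ with the last of these (0.38). Sox17 turned in GFP+ over GFP- by the median over probe sets (0.31) and without _x_at and _s_at probe sets (0.0076). With the floor at the 65th percentile, 1 Sox gene (Sox2) passed 2-fold downward in GFP+++ over GFP- (all genes 7.61%). The median was then -0.15, and 5 Sox genes were measured in GFP+++ over GFP+. With the floor at the 35th percentile 3 genes (Sox9, Sox10 and Sox17) passed 2-fold downward in GFP+++ over GFP+ (all genes 13.0%). The median over all probe sets of a gene, dim ones included, gave a median of -0.26 for GFP+++ over GFP-. By it 1 gene (Sox4) was past 2-fold downward in GFP+++ over GFP+ (all genes 7.29%). The Sox4 minus Sox11 difference was then -2.03 against GFP- and -2.06 against GFP+. Quantile normalization moved that difference in GFP+ over GFP- to -0.33. A floor changes these values by its construction; for the rest the cause was not tested. Of all genes in GFP+++ over GFP-, 235 were 2-fold higher and 1522 lower, against 1129 and 1045 after median scaling, 367 and 1306 after quantile normalization, 152 and 746 at the higher floor and 302 and 2335 at the lower. In GFP+ over GFP- the counts were 74 and 98, against 131 and 46 with median scaling, 40 and 38 at the higher floor and 118 and 220 at the lower. In GFP+++ over GFP+ they were 117 and 1110, against 416 and 767, 179 and 895 (quantile), 71 and 526, and 170 and 1814. Without _x_at and _s_at probe sets Sox17 had no value in GFP+++ over GFP-. The _a_at sets, among them those of Sox10 and Sox13, were not left out. Background signal limits Sox5, Sox6, Sox9, Sox10 and Sox17 most.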

Other observations

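Markers of 4 other cell types were read from the same arrays. All 7 fibroblast markers passed 2-fold downward in GFP+++ over GFP- (median log2 fold -4.08, with 1 bound), with Col1a2, a fibrillar collagen chain, at 847 against 14317. All 6 immune markers did so too (median -3.49, with 3 bounds), with Csf1r, the macrophage growth factor receptor, at 151 against 5051. Of 6 horizontal basal cell markers 5 did (median -1.82, with 4 bounds), with Krt5, the basal keratin, at 128 against 542. Mature neuron markers were nearer to 0, with 1 of 9 past 2-fold downward (median -0.46), and 4 of 9 lay above 0 with median scaling. Omp, their standard marker, peaked in GFP+ (5041, 10615 and 7748).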
